A study of Homo sapiens with 3 samples.

Results

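Estrogen acts on breast cancer cells by switching some genes on and others off. This account follows 10 genes known as estrogen-repressed: CCNG2, BCAS1, LIPH, EFNA1, ERBB2, ERBB3, BLNK, PSCA, TOB1 and IL1R1. They were chosen by name, with earlier results of these data known. Every probe set other than a control was used that the platform annotation gave to exactly 1 of these symbols. All 10 genes were on the array, with 23 of the 41091 probe sets that had 1 gene, and they were 10 of 19775 genes in all.

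Gene expression was measured in T47D cells, an established line from a human breast carcinoma that expresses estrogen receptor α, on 3 Affymetrix HG-U133 Plus 2 arrays. Cells spent 4 h in medium with 10% charcoal-stripped serum, which is depleted of steroid hormones. For the next 3 h they received the vehicle (0.1% ethanol), 1 µM estradiol or 1 µM ERα17p, and each group had 1 array. Estradiol is the natural hormone, and ERα17p is a synthetic peptide copied from a stretch of the receptor itself. An ethanol share was stated for the vehicle cells only. All cells were of 1 line, so the arrays say nothing about other lines or about tissue. Each value was read as relative to a baseline of its own probe set, so only differences between arrays can be read. Whether the luminal markers of T47D stood at a high level could for the same reason not be checked. Differences were read as log2 values, a base that the sources do not state, and every fold size below depends on that reading.

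When estradiol binds estrogen receptor α, repression can come from corepressors that the receptor recruits or from cofactors drawn away from other genes. Many of the repressed genes restrain growth or feed other growth factor pathways. ERBB2 is the best known of them: estrogen lowers this receptor kinase in hormone-dependent breast cancer cells, and blocking estrogen lets it return. The comparisons ask how these genes stood early after the hormone, early after the peptide, and in the peptide array against the hormone array.

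The vehicle array differed in kind from the treated arrays. The SD of its non-control values was 0.434, against 0.158 for estradiol and 0.166 for ERα17p. Compared with vehicle, the 3 control sets for 18S ribosomal RNA averaged 1.87 higher with estradiol and 1.76 higher with ERα17p. Against the vehicle array, the 3′ probe set of ACTB differed by −0.42 on the estradiol and −0.47 on the ERα17p array, while the 5′ probe set differed by 0.40 and 0.22. The part of these differences in the results against vehicle was not tested. Between the ERα17p and estradiol arrays the same controls differed by −0.12 for 18S, −0.056 for the 3′ and −0.18 for the 5′ probe set of ACTB. Results are therefore also given between the treated arrays, without the vehicle array.

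The peptide and hormone arrays differed for these genes: 8 of the 10 were higher with ERα17p than with estradiol, beside 51.6% of all genes, and 5 of them, CCNG2, BCAS1, LIPH, IL1R1 and BLNK, by about the same amount. BCAS1 was higher by 0.63 (1.55-fold), LIPH by 0.61 ± 0.025 (SD over 2 probe sets, 1.53-fold) and CCNG2 by 0.61 ± 0.39 (SD over 5 probe sets, 1.52-fold). IL1R1, at 0.58 ± 0.71 (SD over 2 probe sets), and BLNK, at 0.56 on 1 probe set, lay just under the 1.5-fold line. These 5 genes held ranks 74 to 129 of 19775 genes ordered from the highest difference. At least 1.5-fold higher were 3 of 10 genes, where 0.521% of all genes were, and 0 of 10 were at least 1.5-fold lower, where 0.607% of all genes were. At 2-fold the counts were 0 of 10 in either direction, beside 0.0607% of all genes higher and 0.086% lower. The median over the 10 genes was 0.40, beside 0.0062 over all genes. Since the genes were chosen with earlier results of these data known, these counts and ranks describe the list and are no independent support. Each group had 1 array, so no p-value was computed, and the SD over probe sets is no error between cultures. With every array rescaled to the mean SD of the 3, the 5 differences were 0.86 to 0.98 and all 5 passed 1.5-fold, beside 2.94% of all genes. This setting stretches both treated arrays, whose SDs were below that of vehicle, and so enlarges differences between them in general. The passes of IL1R1 and BLNK under it are therefore no further support. Without sets ending in _s_at or _x_at the 3 genes past 1.5-fold were BCAS1, LIPH and IL1R1, the last at 1.08, and CCNG2, at 0.55, fell under the line.

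**Figure D1:**
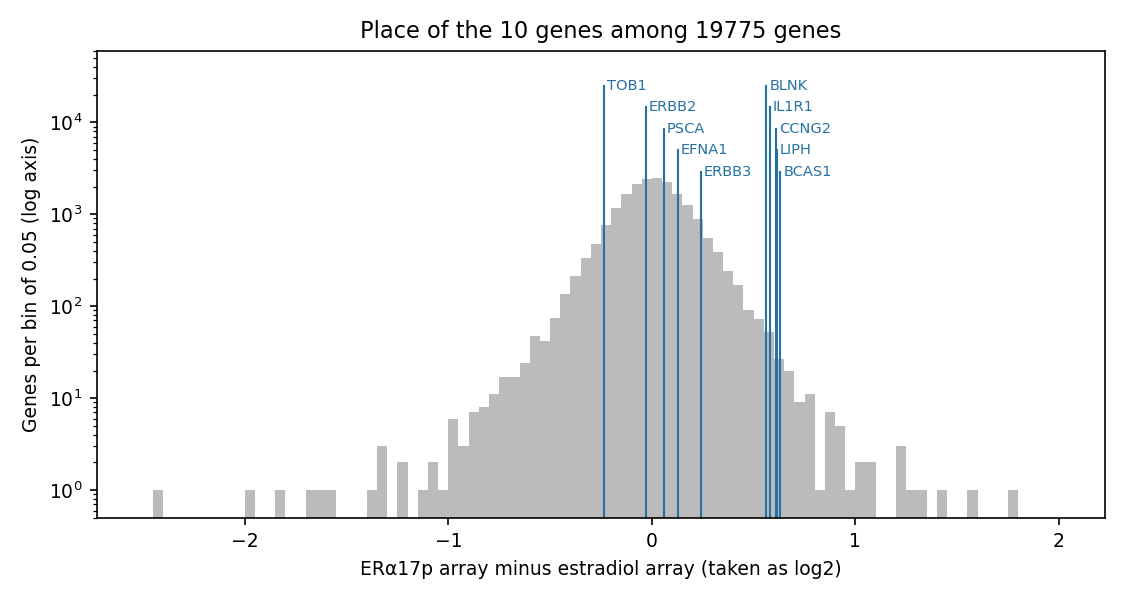
Histogram of the difference between the ERα17p and estradiol arrays (x axis, taken as log2) for 19775 genes, with the number of genes per bin on a log axis. Blue lines mark the 10 genes: 5 of them stand together between 0.56 and 0.63, and TOB1 is the lowest at −0.24.

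Single probe sets gave the same picture. Of the 23 probe sets 19 were higher on the ERα17p array, beside 51.2% of all probe sets with 1 gene. At least 1.5-fold higher were 7 of 23, beside 0.891% of all such sets, and 0 of 23 were at least 1.5-fold lower, beside 1.14%. These 7 sets came from 4 genes: 3 from CCNG2, 2 from LIPH and 1 each from BCAS1 and IL1R1. The estradiol array was the lowest of the 3 arrays for 12 of the 23 sets (29.7% of all sets), and the ERα17p array was the highest for 14 (31.8% of all sets). Sets of 1 gene share their transcript and are not independent of each other.

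**Figure D2:**
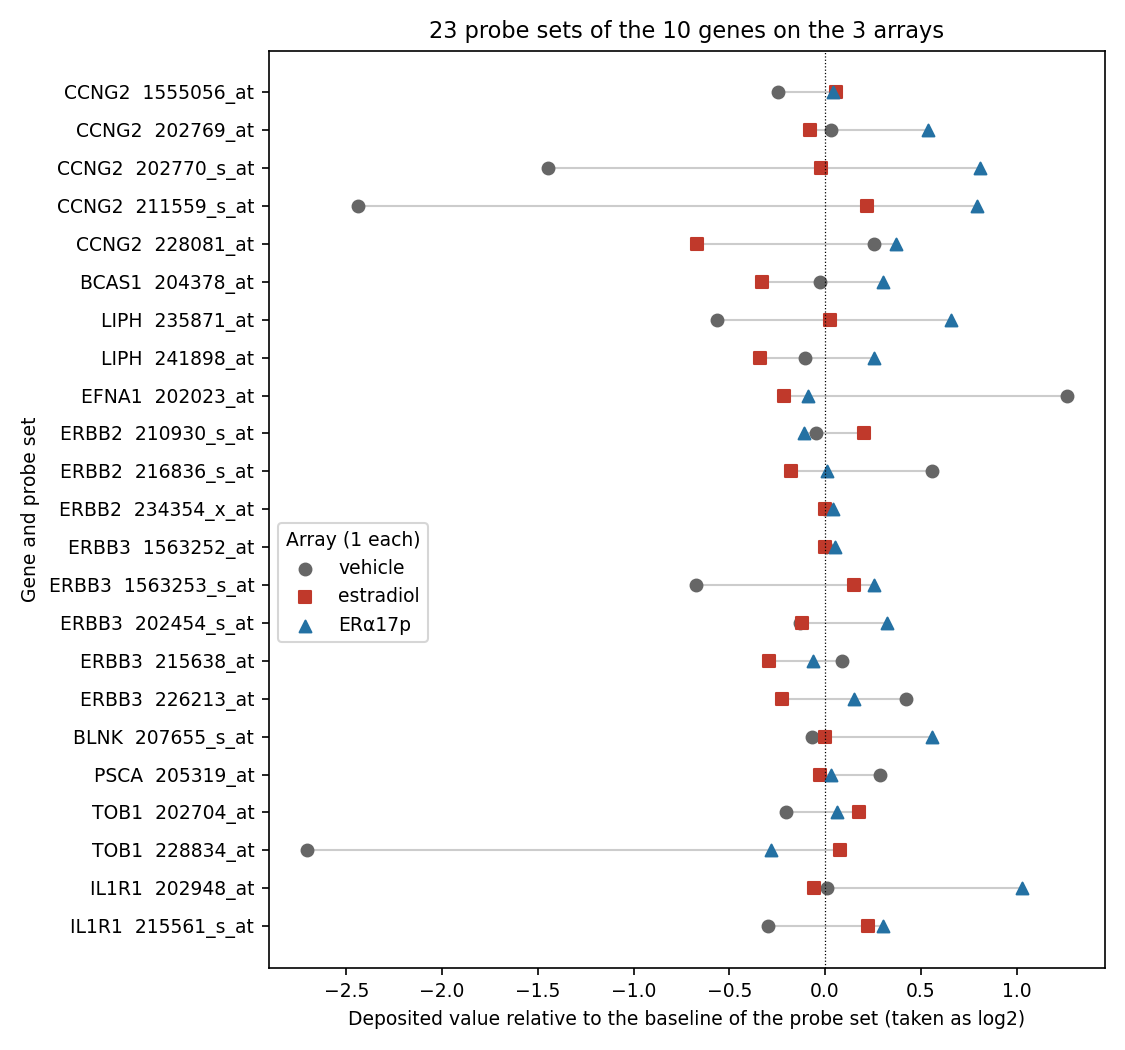
Deposited values of the 23 probe sets (rows, grouped by gene) relative to the baseline of each set, on the vehicle (grey circles), estradiol (red squares) and ERα17p (blue triangles) arrays. The ERα17p point is the highest in 14 rows, and the vehicle point is far to the left for 2 CCNG2 sets and 1 TOB1 set.

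Against the vehicle array and with all probe sets, the genes did not move as a group with estradiol, and EFNA1 alone was lower by 1.5-fold or more. This depended on the sets used: without those ending in _s_at or _x_at, 8 genes were left and their median was −0.27. EFNA1 was then still the 1 gene lower by 1.5-fold. At least 1.5-fold lower was 1 of 10 genes, where 8.42% of all genes were, and at least 1.5-fold higher were 2, CCNG2 and TOB1, where 6.48% of all genes were. The median was 0.013, beside −0.0043 over all genes, and 5 genes lay above 0 and 5 below, beside 49.4% of all genes above 0. At 2-fold, TOB1 was higher and EFNA1 lower, beside 1.57% and 1.63% of all genes. With ERα17p, 5 of 10 genes were at least 1.5-fold higher than in the vehicle array (CCNG2, LIPH, BLNK, TOB1 and IL1R1), where 6.88% of all genes were. EFNA1 was the 1 gene at least 1.5-fold lower, where 8.76% of all genes were. The median with ERα17p was 0.48, beside 0.0011 over all genes, and 7 genes lay above 0, beside 50.1%. At 2-fold CCNG2 and TOB1 were higher, beside 1.9% of all genes, and EFNA1 was lower, beside 1.87%. Under the rescaling these 2-fold calls of TOB1 (0.68) and EFNA1 (−0.87) ended and that of CCNG2 (1.22) did not. Counted by probe set, 5 of 23 were at least 1.5-fold higher with estradiol (10.4% of all sets) and 4 lower (9.99%), and with ERα17p 8 were higher (10.5%) and 1 lower (10.1%). Both comparisons share the vehicle array.

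**Figure D3:**
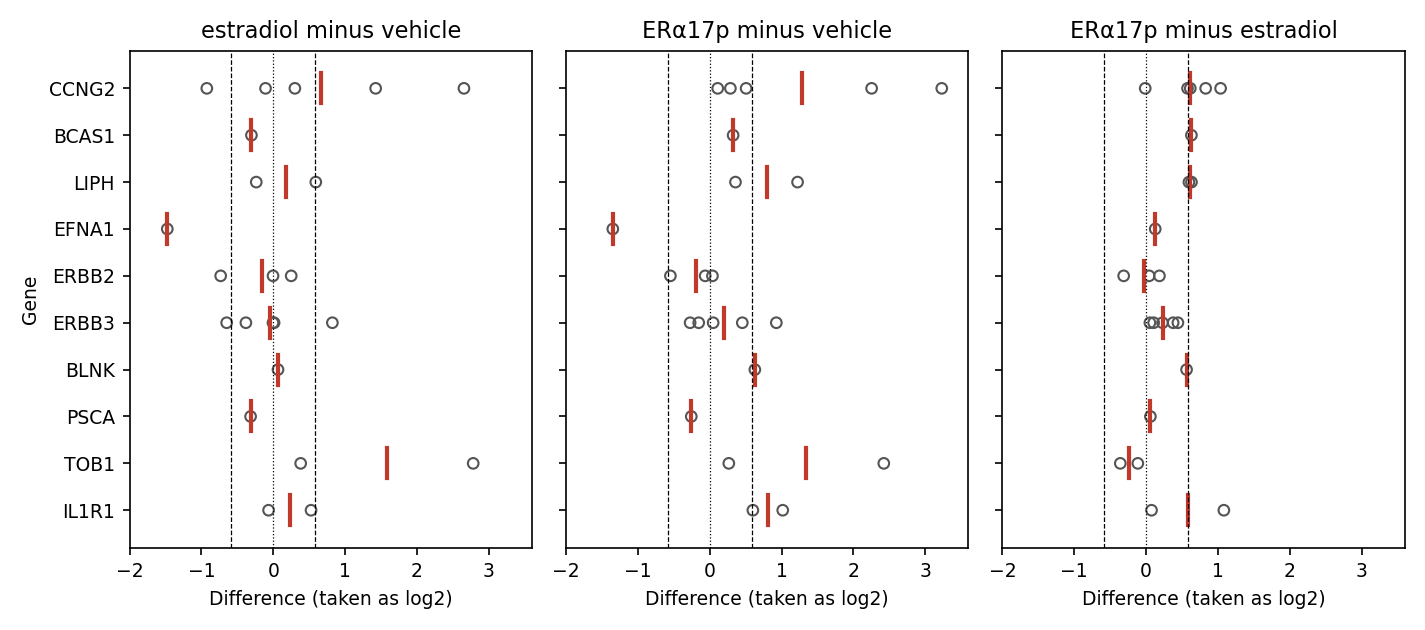
Differences between arrays (x axis, taken as log2) for each gene, with open circles for single probe sets, red bars for the mean of the probe sets of a gene and dashed lines at 1.5-fold. CCNG2, ERBB3 and TOB1 spread widely in the panels against vehicle and less in the panel of ERα17p minus estradiol.

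For 5 of the 6 members with several probe sets, these lay closer together once the vehicle array was left out, and IL1R1 was the exception. Over all 10523 genes with more than 1 probe set, the median range within a gene was 0.52 for estradiol minus vehicle, 0.498 for ERα17p minus vehicle and 0.29 for ERα17p minus estradiol. For LIPH the SD over its 2 sets was 0.59 and 0.61 against vehicle and 0.025 between the treated arrays. For IL1R1 it was 0.42 and 0.29 against vehicle and 0.71 between the treated arrays. In the estradiol comparison with vehicle, CCNG2 and ERBB3 each had 1 set at least 1.5-fold higher and another at least 1.5-fold lower, as 2.91% of the 10523 genes did. No member had such opposed sets in ERα17p minus vehicle, beside 2.6% of these genes, or in ERα17p minus estradiol, beside 0.038%.

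CCNG2 encodes cyclin G2, an unconventional cyclin that is tied to cell cycle arrest and is a known target of FOXO transcription factors. Its probe set 228081_at stood at 0.26 on the vehicle, −0.67 on the estradiol and 0.37 on the ERα17p array. The set 202769_at stood at 0.030, −0.078 and 0.54 in the same order. In both sets estradiol was the lowest array and ERα17p the highest. The set 202770_s_at stood at −1.45, −0.021 and 0.81, and 211559_s_at at −2.44, 0.22 and 0.79. In these sets the vehicle was by far the lowest array, and ERα17p was again the highest. The remaining set, 1555056_at, stood at −0.25, 0.055 and 0.042, with estradiol and ERα17p side by side.

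The CCNG2 difference for estradiol minus vehicle, 0.67 ± 1.40 (SD over 5 probe sets), therefore rested on 2 sets. Their names end in _s_at, which on this array marks probes shared by several transcripts. Without them the mean was −0.24, with the direction turned. With the median of the 5 sets it was 0.30 and with rescaled arrays 0.29, both under 1.5-fold. The range over the 5 sets, 3.58, was reached by 0.0285% of genes with several sets. For ERα17p minus vehicle the mean was 1.28 ± 1.39, or 0.30 without these sets. ERα17p minus estradiol was 0.61 with them and 0.55, under 1.5-fold, without them, and 4 of 5 sets were higher by 0.58 to 1.04.

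The CCNG2 promoter is shown because this gene had the most probe sets among the 3 at least 1.5-fold higher with the peptide than with the hormone. It covers the 250 bases before the transcription start, at chr4:77156957-77157206 on the plus strand (RefSeq, GRCh38.p14). Capitals mark the GC box GGGCGG on either strand, which was found 4 times. A GC box is the usual site of the SP family of factors, through which estrogen receptor α can act without touching DNA itself.
CCNG2: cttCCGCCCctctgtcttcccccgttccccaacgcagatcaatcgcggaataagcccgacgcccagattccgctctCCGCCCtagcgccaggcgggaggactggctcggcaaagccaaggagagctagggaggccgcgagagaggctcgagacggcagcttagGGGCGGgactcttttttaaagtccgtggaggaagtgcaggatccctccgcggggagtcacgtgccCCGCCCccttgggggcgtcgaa

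TOB1, a brake on proliferation that brings the CCR4-NOT deadenylase to messenger RNA, was higher than vehicle in both treated arrays and lower with the peptide than with the hormone. Its probe set 228834_at stood at −2.71 on the vehicle, 0.077 on the estradiol and −0.28 on the ERα17p array. The set 202704_at stood at −0.20, 0.18 and 0.063. In both sets the vehicle was the lowest array and estradiol the highest. TOB1 was thus higher by 1.58 ± 1.70 (SD over 2 probe sets) with estradiol and by 1.34 ± 1.53 with ERα17p than in the vehicle array. With rescaled arrays these were 1.05 and 0.68. These means rested on 1 set, since 202704_at differed by 0.38 and 0.27. ERα17p minus estradiol was −0.24 ± 0.17, the lowest of the 10 genes.

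The measured relatives of CCNG2 had means above vehicle, while those of TOB1 gave no common direction. Of the G- and I-type cyclins, 3 of 4 were measured. CCNG1 was higher than vehicle by 0.62 with estradiol and 0.79 with ERα17p on 1 probe set, and CCNI by 0.52 ± 1.29 and 0.67 ± 1.20 (SD over 3 probe sets). Their differences between the treated arrays, 0.17 and 0.15, were below that of CCNG2. TOB2, the closest relative of TOB1, stood at −0.80 ± 0.62 and −0.60 ± 0.59 (SD over 3 probe sets), against the direction of TOB1. BTG1, BTG3 and BTG4 all differed from vehicle by less than 1.5-fold. Of 11 CCR4-NOT subunits, CNOT6 was at least 1.5-fold higher in both treated arrays, at 0.69 ± 0.35 and 0.59 ± 0.31 (SD over 2 probe sets). Of all genes, 6.48% were at least 1.5-fold higher with estradiol and 6.88% with ERα17p. CNOT3 stood at −0.48 ± 0.63 and −0.59 ± 0.76 (SD over 3 probe sets).

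The FOXO targets as a list did not follow CCNG2. Of 18 measured targets 2 were at least 1.5-fold higher and 1 lower than vehicle with estradiol, and the same counts held for ERα17p. The shares of all genes were 6.48% and 8.42% with estradiol and 6.88% and 8.76% with ERα17p. Besides CCNG2, the pocket protein gene RBL2 was higher by 1.19 ± 0.54 and 1.26 ± 0.14 (SD over 2 probe sets). GADD45A, a DNA damage gene, stood at −0.78 and −0.56, and KLF6, a zinc finger factor, at −0.52 ± 0.48 and −0.74 ± 0.33 (SD over 5 probe sets). Between the treated arrays the list median was 0.019. There 2 of 18 were at least 1.5-fold higher with ERα17p (0.521% of all genes) and 0 lower (0.607%). These were CCNG2 and CITED2, the latter at 0.73. The list median was 0.032 for estradiol and 0.0019 for ERα17p.

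ERBB2 encodes the HER2 receptor kinase, which has no known ligand and signals by pairing with its relatives. Its 3 probe sets did not follow each other. The set 216836_s_at stood at 0.56 on the vehicle, −0.18 on the estradiol and 0.0092 on the ERα17p array, a difference from vehicle of −0.73 and −0.55. In this set the vehicle was the highest array and estradiol the lowest. The set 210930_s_at stood at −0.048, 0.20 and −0.11, with estradiol the highest. The set 234354_x_at stood at 0.0017, −0.0017 and 0.040 and hardly differed between arrays. The mean over the 3 sets was −0.16 ± 0.51 with estradiol and −0.19 ± 0.31 with ERα17p against vehicle, and −0.029 ± 0.26 between the treated arrays.

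The names of all 3 ERBB2 sets end in _s_at or _x_at, so no value was left for this gene without sets whose probes can match other transcripts. By distance in the plane of both differences from vehicle, over 3 arrays, the nearest genes to ERBB2 were TMEM184A, PTPMT1 and FBXL22. With 1246 genes within 0.1 of ERBB2, this place was a common one.

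The ERBB2 promoter window is shown because it alone among the windows of these genes held a match to a loose AP-1 motif. It lies before 1 annotated start of the gene, and whether T47D cells use that start was not tested. The 250 bases lie at chr17:39687844-39688093 on the plus strand (RefSeq, GRCh38.p14). Capitals mark TGANTCA, a loose form of the motif of the JUN and FOS factors that allows any base in the middle. The match here is TGATTCA. The loose form lay in 6.57% of all windows of this length.
ERBB2: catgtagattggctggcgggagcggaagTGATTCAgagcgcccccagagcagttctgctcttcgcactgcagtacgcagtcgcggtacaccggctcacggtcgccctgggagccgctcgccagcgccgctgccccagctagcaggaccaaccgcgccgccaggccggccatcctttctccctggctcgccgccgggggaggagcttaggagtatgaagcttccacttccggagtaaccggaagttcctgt

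ERBB3 encodes HER3, the neuregulin receptor and main signalling partner of ERBB2, whose own kinase is weak. The set 202454_s_at stood at −0.13 on the vehicle, −0.12 on the estradiol and 0.32 on the ERα17p array. The set 226213_at stood at 0.42, −0.23 and 0.15, and 215638_at at 0.091, −0.29 and −0.063. The set 1563253_s_at stood at −0.67, 0.15 and 0.26, and 1563252_at at 0.0036, −0.00084 and 0.051. All 5 sets were higher with ERα17p than with estradiol, by 0.052 to 0.44, while against vehicle they lay on both sides of 0. The mean was 0.24 ± 0.17 (SD over 5 probe sets) between the treated arrays, with 9.1% of all genes higher. Against vehicle it was −0.040 ± 0.56 with estradiol and 0.20 ± 0.49 with ERα17p.

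The list of ERBB receptors and ligands, with ERBB2 and ERBB3 among them, gave no common direction. Of 15 listed receptors and ligands 13 were measured. With estradiol 3 were at least 1.5-fold higher (6.48% of all genes) and 1 lower (8.42%). With ERα17p 1 was higher (6.88%) and 0 lower (8.76%). Between the treated arrays 0 passed either way (0.521% and 0.607%). EGFR, the founding receptor of the family, was higher than vehicle by 0.85 ± 0.99 and 0.76 ± 0.85 (SD over 9 probe sets). The ligand TGFA was higher by 0.60 ± 0.66 with estradiol and 0.27 ± 0.21 with ERα17p (SD over 3 probe sets), and NRG4 by 0.67 and 0.34. The ligand HBEGF stood at −0.61 ± 0.38 and −0.47 ± 0.47 (SD over 4 probe sets). The list median was 0.0067, 0.040 and −0.029 in the order of comparisons.

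Among 14 adaptors and inhibitors of ERBB receptors, 1 was at least 1.5-fold higher (6.48% of all genes) and 2 lower (8.42%) with estradiol. With ERα17p 3 were higher (6.88%) and 1 lower (8.76%). LRIG3, a membrane protein of a family that holds receptor kinases in check, stood at 0.47 with estradiol and 1.75 with ERα17p. With ERα17p it was higher than with estradiol by 1.27 on its 1 probe set. PTPN12, a phosphatase, was higher than vehicle by 0.84 ± 0.74 and 0.73 ± 0.81 (SD over 3 probe sets), and SOCS5 by 0.43 ± 0.19 and 0.72 ± 0.24 (SD over 3 probe sets). The adaptor GAB2 stood at −0.66 between the treated arrays. It was the 1 gene of the list at least 1.5-fold lower there, beside 0.607% of all genes.

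Of 14 listed genes of 17q12, with ERBB2 among them, 4 were at least 1.5-fold lower with estradiol, beside 8.42% of all genes. With ERα17p 2 were lower by as much, beside 8.76%. None of the 14 was at least 1.5-fold higher, beside 6.48% and 6.88% of all genes. STARD3, which carries cholesterol, stood at −0.85 and −0.88, PGAP3 at −0.74 ± 0.15 and −0.79 ± 0.15 (SD over 2 probe sets), and the adaptor GRB7 at −0.75 and −0.27. PPP1R1B stood at −0.59 and −0.53. The list median was −0.15 with estradiol and −0.24 with ERα17p, and −0.021 between the treated arrays. There 0 of 14 passed 1.5-fold, beside 0.521% of all genes higher and 0.607% lower.

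EFNA1 encodes ephrin-A1, a membrane-anchored ligand of Eph receptor kinases such as EPHA2. Its 1 probe set, 202023_at, stood at 1.26 on the vehicle, −0.21 on the estradiol and −0.087 on the ERα17p array. Both treated arrays were far below the vehicle array and close to each other. The difference from vehicle was −1.48 with estradiol, a level 2.78-fold lower, and −1.35 with ERα17p, 2.55-fold lower. With rescaled arrays these differences were −1.08 and −0.87. With estradiol 99.8% of all genes had a higher difference. ERα17p minus estradiol was 0.13.

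Its relatives mostly stayed under 1.5-fold. Of 14 A-type ephrins and receptors, EFNA1 included, 1 was higher by 1.5-fold (6.48% of all genes) and 2 were lower (8.42%) with estradiol. With ERα17p 1 was higher (6.88%) and 1 lower (8.76%). EFNA4 stood at −0.62 and −0.44, and EFNA5 at 0.60 ± 1.02 and 0.57 ± 1.02 (SD over 4 probe sets). EPHA4, a receptor, stood at 0.10 ± 0.46 with estradiol and 0.80 ± 0.49 with ERα17p (SD over 5 probe sets), and was higher by 0.70 ± 0.42 between the treated arrays.

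The EFNA1 promoter is shown for its GC content, since it belonged to the gene that was lowest against vehicle. Its 250 bases, at chr1:155127626-155127875 on the plus strand (RefSeq, GRCh38.p14), were 73.2% G and C, against a median of 58.0% over all windows. Capitals mark GGGCGG on either strand, found 5 times with 1 pair overlapping.
EFNA1: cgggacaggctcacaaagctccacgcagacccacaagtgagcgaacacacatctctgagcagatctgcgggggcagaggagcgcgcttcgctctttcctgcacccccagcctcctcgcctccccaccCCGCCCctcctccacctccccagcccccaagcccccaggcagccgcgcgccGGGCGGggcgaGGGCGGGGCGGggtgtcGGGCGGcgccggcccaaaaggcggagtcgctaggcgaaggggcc

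IL1R1 encodes the signalling receptor for interleukin-1. Its probe set 202948_at stood at 0.010 on the vehicle, −0.055 on the estradiol and 1.03 on the ERα17p array. Only the ERα17p array stood out in this set, by 1.08 over estradiol. The set 215561_s_at stood at −0.30, 0.23 and 0.30, with both treated arrays above the vehicle and near each other. The mean was 0.23 ± 0.42 with estradiol and 0.81 ± 0.29 with ERα17p against vehicle (SD over 2 probe sets).

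The coreceptor IL1RAP was higher than vehicle by 1.31 ± 1.31 with estradiol and 1.49 ± 1.08 with ERα17p (SD over 2 probe sets). TAB2, an adaptor of the pathway, was higher by 0.54 ± 0.90 and 0.82 ± 0.82 (SD over 3 probe sets). Of 15 measured genes of the pathway, 1 was at least 1.5-fold higher with estradiol (6.48% of all genes) and 3 with ERα17p (6.88%). In both comparisons 0 were lower, beside 8.42% and 8.76% of all genes. The list median was 0.016 and −0.040, and 0.067 between the treated arrays.

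LIPH encodes a membrane-bound phospholipase that makes the signalling lipid lysophosphatidic acid. Its probe set 235871_at stood at −0.57 on the vehicle, 0.027 on the estradiol and 0.66 on the ERα17p array. The set 241898_at stood at −0.10, −0.34 and 0.26. ERα17p was the highest array in both, by 0.63 and 0.60 over estradiol, while the order of vehicle and estradiol differed. Against vehicle, LIPH stood at 0.18 ± 0.59 with estradiol and was higher by 0.79 ± 0.61 with ERα17p. No other gene of the 8 measured in the list of lysophosphatidic acid enzymes and receptors passed 1.5-fold in any comparison. Of all genes, 6.48% were higher and 8.42% lower with estradiol, 6.88% and 8.76% with ERα17p, and 0.521% and 0.607% between the treated arrays. LPAR6, the receptor paired with LIPH in hair follicles, stood at 0.36 ± 0.065 and 0.54 ± 0.21 (SD over 2 probe sets).

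BLNK encodes an adaptor that links the kinase SYK to phospholipase C in B cells and is also expressed in some epithelia. Its 1 probe set, 207655_s_at, stood at −0.068 on the vehicle, −0.0026 on the estradiol and 0.56 on the ERα17p array. Only the ERα17p array stood apart, by 0.63 over vehicle and 0.56 over estradiol. The name of this set ends in _s_at, so BLNK had no value once such sets were left out.

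Of 14 genes in the BLNK signalling list, 1 was at least 1.5-fold higher (6.48% of all genes) and 2 lower (8.42%) with estradiol. With ERα17p 2 were higher (6.88%) and 1 lower (8.76%). PLCG1, a phospholipase C, stood at −0.68 ± 0.11 and −0.60 ± 0.073 (SD over 2 probe sets), VAV1 at −0.73 and −0.55, and the adaptor NCK1 at 0.77 ± 0.84 and 0.65 ± 0.90 (SD over 4 probe sets). None of the 14 passed 1.5-fold between the treated arrays, beside 0.521% of all genes higher and 0.607% lower.

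The LIPH and BLNK promoters are shown together because both genes were higher with the peptide than with the hormone and both windows held the motif GGTCA, one arm of the estrogen response element. They lie at chr3:185552589-185552838 and chr10:96271570-96271819, each on the minus strand and printed 5′ to 3′ (RefSeq, GRCh38.p14). Each held 1 match, in capitals, and 32.6% of all windows held at least 1. A window of TOB1 also held GGTCA, and TOB1 was lower with the peptide than with the hormone, at −0.24. CCNG2, IL1R1 and EFNA1 were higher with the peptide, and their windows held no match. ERBB2, at −0.029, held none either. A link between motif and direction was not tested.
LIPH: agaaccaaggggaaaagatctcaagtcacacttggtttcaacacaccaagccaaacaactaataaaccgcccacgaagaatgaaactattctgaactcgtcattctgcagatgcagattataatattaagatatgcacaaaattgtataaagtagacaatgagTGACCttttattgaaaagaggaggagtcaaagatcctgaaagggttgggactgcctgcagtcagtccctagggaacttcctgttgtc
BLNK: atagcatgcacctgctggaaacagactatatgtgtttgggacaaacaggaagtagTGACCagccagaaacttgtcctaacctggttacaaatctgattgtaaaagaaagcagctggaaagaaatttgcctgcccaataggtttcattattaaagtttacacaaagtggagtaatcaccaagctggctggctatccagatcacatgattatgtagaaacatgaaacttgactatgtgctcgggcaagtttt

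Promoter windows were found for 7 of the 10 genes, 11 windows in all, since IL1R1 and TOB1 have several starts. BCAS1, ERBB3 and PSCA had none. Both strands of the 250 bases before each start were searched. The full element, an inverted repeat of GGTCA with a gap of 3 bases, was in 0 of the 11 windows and in 0.0399% of all 35116 windows. GGTCA alone, which the full element contains, was in the windows of LIPH and BLNK and in 1 window of TOB1. The GC box was in the windows of EFNA1, LIPH and CCNG2 and in some but not all windows of IL1R1 and TOB1. It was in 42.6% of all windows, a share of windows and not of genes. TGTTTAC, a motif of FOXO and FOXA factors, was in 0 of 11, beside 2.98% of all windows. A match is a run of letters and not a measured site.

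BCAS1 is a gene of 20q13, a region often amplified in breast cancer, and is also expressed in myelinating cells. It and ERBB3 were the 2 of 10 genes whose treated arrays lay on opposite sides of vehicle. Without sets ending in _s_at or _x_at ERBB3 no longer did, at −0.34 with estradiol and −0.13 with ERα17p, while CCNG2, at −0.24 and 0.30, and IL1R1, at −0.065 and 1.02, then did. With all sets, vehicle was the lowest array for 40.4% of all genes and the highest for 40.8%. A place of vehicle between the treated arrays was thus common and no trait of these members. The share of all genes without sets ending in _s_at or _x_at was not computed. The 1 BCAS1 probe set, 204378_at, stood at −0.026 on the vehicle, −0.33 on the estradiol and 0.30 on the ERα17p array. Each treated array was less than 1.5-fold from the vehicle, at −0.30 and 0.33. Of 8 measured genes of the region, AURKA, a mitotic kinase, was higher than vehicle by 0.64 ± 0.11 with estradiol and 0.58 ± 0.17 with ERα17p (SD over 3 probe sets). BCAS1 was the 1 gene of the 8 past 1.5-fold between the treated arrays, beside 0.521% of all genes higher and 0.607% lower.

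PSCA encodes a small membrane-anchored surface protein of the LY6 family. Its 1 probe set, 205319_at, stood at 0.29 on the vehicle, −0.027 on the estradiol and 0.033 on the ERα17p array. Both treated arrays were below the vehicle, by less than 1.5-fold, at −0.32 and −0.26. Of 11 measured LY6 genes, PSCA included, 0 were at least 1.5-fold higher (6.48% of all genes) and 2 lower (8.42%) with estradiol. With ERα17p 1 was higher (6.88%) and 1 lower (8.76%). LY6E stood at −1.39 and −1.41, LYPD3 at −0.59 and −0.18, and LYPD6B at 0.33 and 0.65. None of the 11 passed 1.5-fold between the treated arrays, beside 0.521% of all genes higher and 0.607% lower.

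Other genes that have been reported as estrogen-repressed were given for comparison, from a list of 16 of which 15 were measured. With estradiol 2 were at least 1.5-fold higher than vehicle and 2 lower, with a median of −0.19, and 3 lay above 0, beside 49.4% of all genes. With ERα17p 3 were higher and 3 lower, with a median of −0.090. Of all genes, 6.48% were higher and 8.42% lower with estradiol, and 6.88% and 8.76% with ERα17p. Between the treated arrays the median was 0.14. There 2 were at least 1.5-fold higher with ERα17p, beside 0.521% of all genes, and 0 lower, beside 0.607%. CYP1A1, a detoxifying enzyme, was higher than vehicle by 1.17 and 2.41, and TGFB2, a growth-inhibiting cytokine, stood at 0.55 ± 0.49 and 1.33 ± 1.06 (SD over 5 probe sets). NEDD9, a scaffold protein, stood at 0.90 ± 1.06 and 0.70 ± 1.01 (SD over 5 probe sets), and YPEL3, a growth suppressor, at −0.53 ± 0.79 and −0.72 ± 0.59 (SD over 2 probe sets). The 2 genes at least 1.5-fold lower with estradiol were BIK, a death-promoting relative of BCL2, at −0.70, and MUC1, a cell surface mucin, at −0.60 ± 0.24 (SD over 3 probe sets), and with ERα17p they stood at −0.32 and −0.63 ± 0.31.

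Genes known to be induced by estrogen were given as a reference, with 11 measured. With estradiol 6 were at least 1.5-fold higher than vehicle, beside 6.48% of all genes, and 2, TFF1 and IGFBP4, were lower, beside 8.42%, with a median of 0.94. With ERα17p 2 were higher, beside 6.88%, and 3 lower, beside 8.76%, with a median of 0.11. TFF1, a secreted trefoil peptide, stood at −2.19 with estradiol and −2.92 with ERα17p, and IGFBP4, which binds insulin-like growth factors, at −0.69 and −1.34. The transcription factor gene MYC stood at 2.07 and 0.38, the zinc transporter gene SLC39A6 at 1.89 ± 1.10 and 1.77 ± 1.03 (SD over 4 probe sets), and PGR, the progesterone receptor gene, at 1.44 ± 0.28 and 0.89 ± 0.041 (SD over 2 probe sets). Between the treated arrays 0 of the 11 lay above 0, beside 51.6% of all genes, and 6 were at least 1.5-fold lower with ERα17p, beside 0.607%, with a median of −0.65.

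ESR1, the receptor gene itself, differed by 0.10 ± 0.20 with estradiol and 0.19 ± 0.24 with ERα17p from vehicle, and by 0.085 ± 0.25 between the treated arrays (SD over 9 probe sets). Luminal markers had a median of −0.059 between the treated arrays over 11 genes. Markers of basal, stromal, endothelial and blood cells had a median of 0.052 over 11 genes, and reference genes of −0.025 over 12. In these last 3 lists 0 genes passed 1.5-fold between the treated arrays, beside 0.521% of all genes higher and 0.607% lower.

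**Figure D4:**
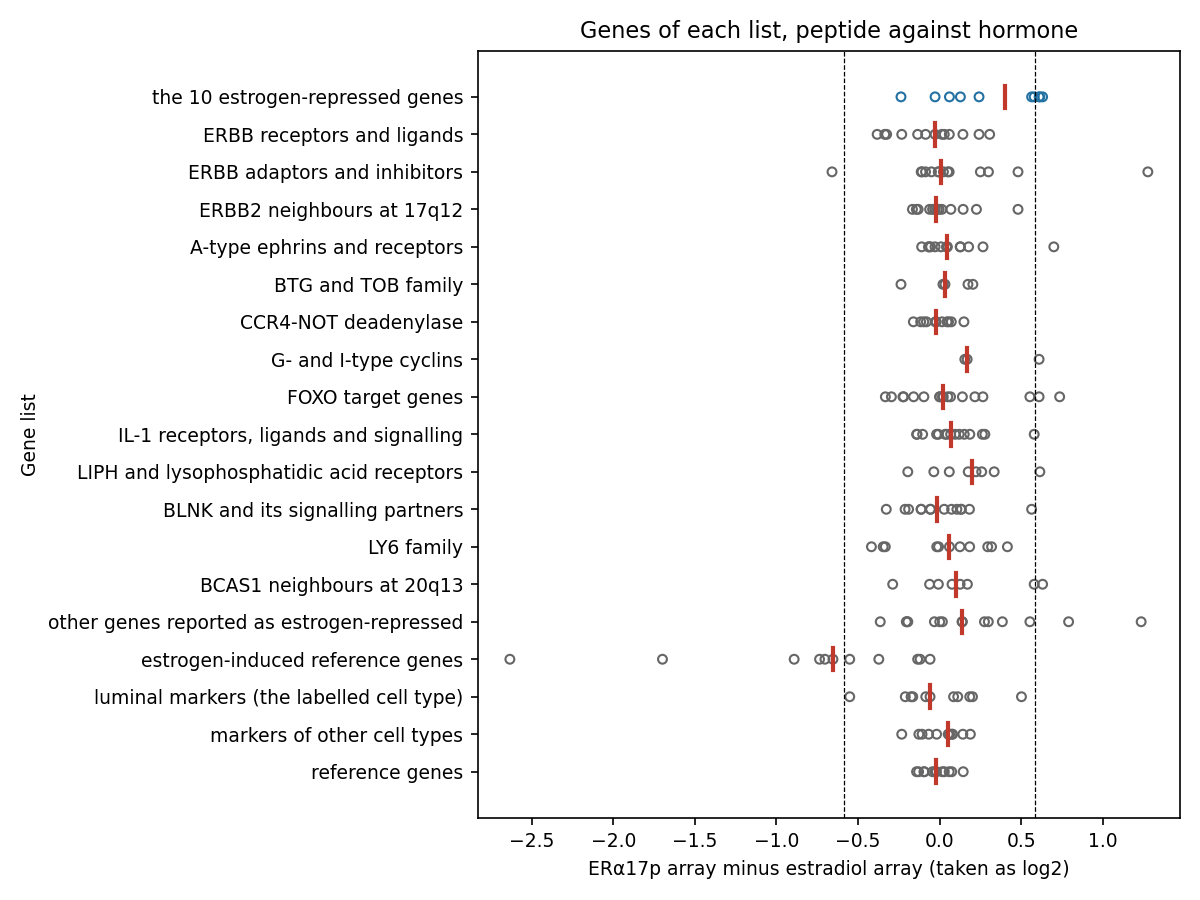
Difference between the ERα17p and estradiol arrays (x axis, taken as log2) for each measured gene of each list, with red bars at list medians and dashed lines at 1.5-fold. The 10 estrogen-repressed genes have a median of 0.40, the estrogen-induced genes one of −0.65, and the other lists have medians between −0.059 and 0.20.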

How the data were processed

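The members and gene lists were chosen with earlier results of these data known. Per the submitters' processing notes the authors used RMA (version not given in the sources used here). The deposited values were taken as log2, because RMA gives log2 values. Array medians lay near 0 (−0.0097, −0.000059 and −0.0029) and array SDs were 0.158 to 0.434. Centring an array would leave RMA levels spread over several log2 units, so the values were read as relative to a baseline per probe set. No source used here gives that step, its baseline or the base of the logarithm.

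The table held 54675 probe sets with 62 controls. In the platform annotation 41091 had 1 gene, 1801 several and 11721 none, and only the first were used for genes. Of those with 1 gene, 41037 matched a current gene record by gene number. The value of a gene was the mean over its probe sets. Each treated array was compared with vehicle and ERα17p with estradiol, and genes were counted at 1.5-fold (0.585 on the log2 scale). No test was run because each group had 1 array, and the number of arrays limits the precision.

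Every probe set of the 10 genes was given. In each list, up to 4 genes at least 1.5-fold from vehicle were named with the largest difference, small families were named whole, and ESR1 always. CITED2, GAB2, LPAR6, BIK, MUC1 and IGFBP4 were chosen after their values were seen. Alternatives were a fold of 2, a level 25% higher (or lower by the same factor), the median of probe sets, no _x_at or _s_at sets, centred arrays, arrays rescaled to their mean SD, and probe sets in place of genes. A count of genes whose probe sets all pass was added after seeing the data. The computations were tested on simulated data for estradiol minus vehicle, where 200 of 200 genes changed by 2-fold were recovered among 19775. The simulated noise was small, and every probe set of a changed gene moved by the same amount. Full recovery was therefore certain and checked the code only. It does not show that such changes can be found in these arrays. Promoter sequences came from RefSeq (GRCh38.p14). A planned comparison of protein sequences was not run. Python 3.11.15, numpy 2.4.6, pandas 2.3.3 and matplotlib 3.10.9 were used.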

Additional observations from a re-analysis of the deposited data

How the results depend on the processing

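No paired analysis was possible because each group had 1 array, and for the same reason no array could be left out of a group. Shares in brackets are of all genes under the same setting. Centring each array left every count as it was and moved no median by over 0.1. At 2-fold, the members higher were 1 with estradiol (1.57%), 2 with ERα17p (1.9%), both against vehicle, and 0 between the treated arrays (0.0607%), where a threshold of 25% higher gave 5 (4.67%). With the median of probe sets 1 was higher with estradiol (6.35%). Without sets ending in _x_at or _s_at, which left 8 genes because ERBB2 and BLNK have no other sets, 1 was higher with estradiol (5.99%) and 3 with ERα17p (6.45%), the medians were −0.27 and 0.31, and CCNG2 with estradiol was −0.24. Between the treated arrays 3 were again higher (0.643%), with IL1R1 in and CCNG2 out. Rescaling all arrays to 1 SD gave 1 higher with estradiol (3.91%), while between the treated arrays 5 were higher (2.94%), with a median of 0.61. It stretched both treated arrays, and the share of all genes higher between them rose from 0.521% as well. Counted as probe sets, 5 of 23 were higher and 4 lower with estradiol, 8 higher with ERα17p and 7 higher between the treated arrays. When every probe set of a gene had to pass, 0 were higher with estradiol (3.31%) and 2 with ERα17p (3.81%). Single-gene differences moved past the spread of their probe sets (0.1 for genes with 1 set) in 10 of 30 cases under rescaling and in 0 cases under the other settings, apart from the turned CCNG2 value. Of the smaller differences, 4 changed sign: IL1R1 with estradiol (−0.065) and ERBB3 with ERα17p (−0.13) without sets ending in _x_at or _s_at, LIPH with estradiol under rescaling (−0.056), and ERBB2 between the treated arrays with the median of probe sets (0.042). Signal over background is unknown, since no absolute level was kept.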
